A study of Mus musculus with 24 samples.

Results

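The p53 target genes described here are Cdkn1a, Mdm2, Ccng1, Trp53inp1, Bax, Bbc3, Pmaip1, Fas, Phlda3 and Sesn1. They were chosen by symbol, as 10 textbook targets of p53. All 10 are present among the 23095 genes of the J1 table and the 25476 genes of the tet-off table, and all 10 passed the minimum of 2 reads in both. The study compared mouse embryonic stem cells (ESCs) with expanded potential stem cells (EPSCs), which are ESCs adapted to media reported to widen their developmental potential, by poly(A) RNA sequencing of 24 libraries in 12 groups of 2 replicates. In wild-type J1 cells it compared ESCs, D-EPSCs and L-EPSCs. In tet-off lines it compared ESCs, L-EPSCs without doxycycline (noDox) and L-EPSCs with doxycycline (Dox).

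J1 ESCs were grown in serum with LIF and the inhibitors CHIR99021 and PD0325901, on feeder cells or gelatin. D-EPSCs were grown in N2B27 with LIF, CHIR99021, dimethindene maleate and minocycline hydrochloride. L-EPSCs were grown in a serum replacement medium with LIF, CHIR99021, PD0325901, A-419259 (a Src family inhibitor), XAV939 (a tankyrase inhibitor), JNK inhibitor VIII and SB203580 (a p38 inhibitor). Per the methods, both kinds of EPSC were kept without feeder cells for several passages before the RNA was taken, while the labels do not say which of the 2 surfaces the J1 ESC libraries came from. The tet-off lines are ZHBTc4 for Oct4, 2TS22C for Sox2 and NgcKO for Nanog, called Oct4-cKO, Sox2-cKO and Nanog-cKO below. The labels give 1 protocol for all samples and describe the ESC medium for J1 cells. Each tet-off line is a cell line in which the endogenous gene is inactivated and a transgene that doxycycline silences supplies the factor, so a line effect and the effect of its factor cannot be told apart. No Dox group lacks such a transgene, so an effect of doxycycline itself cannot be told apart from loss of the factor. The duration of doxycycline treatment for these libraries is not given in the labels. The labels also do not say whether the replicates are separate cultures, so p-values measure only the spread between these samples, which may be technical.

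p53, encoded by Trp53, is a transcription factor that is kept low by the ubiquitin ligase Mdm2 and accumulates after DNA damage and other stresses. It binds a response element made of a pair of similar half-sites and activates genes that stop the cell cycle, trigger apoptosis or adjust metabolism, and Mdm2 is itself a target, which closes a feedback loop. Mouse ESCs are known for abundant p53 protein, a short G1 phase and low p21, the product of Cdkn1a. Levels of RNA do not show the activity of p53, which is set largely by its stability and modification.

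The response elements near these genes are shown because a p53 site is what makes a gene a direct target, and the members differ in how closely the sequence near their start matches it. The NCBIM37 genome was searched on both strands within 3000 bases either side of the gene start for a 20-base p53 site, that is a pair of adjoining p53 half-sites of 10 bases each, allowing 1 mismatch outside the central C and G of each half-site. Such a site is present near 216 of 22380 protein-coding genes (0.965%) and near 2 of the 10 members, Cdkn1a and Ccng1. With no mismatch allowed it is present near 23 genes (0.103%) and near 0 members. The search took half-sites with no bases between them, so a pair set apart by a spacer would be missed. The sites are printed 5′ to 3′ on the strand of the gene with 20 bases on each side, and the capitals mark the 20-base site.

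Cdkn1a, chr17:29227853-29227912, plus strand: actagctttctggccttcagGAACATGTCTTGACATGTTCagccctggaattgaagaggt
Ccng1 upstream, chr11:40568944-40569003, minus strand: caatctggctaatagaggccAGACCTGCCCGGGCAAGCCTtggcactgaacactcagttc
Ccng1 downstream, chr11:40568418-40568477, minus strand: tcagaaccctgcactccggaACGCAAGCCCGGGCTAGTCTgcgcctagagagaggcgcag

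The Cdkn1a match begins at -51 and ends at -32 relative to the annotated gene start, which is the more upstream of the Cdkn1a starts given below. Of the Ccng1 matches, the first lies at -170 to -151 and the second at 356 to 375. In the RefSeq promoters of GRCm38.p6, which run from 250 bases before to 50 after a start, 8 members were found with 12 promoters in all. For Cdkn1a these are chr17:29090729-29091028, which holds the match printed above, and the downstream chr17:29093519-29093818, which does not. Measured from the downstream start, the match lies farther upstream. Of these 12 promoters, 5 (1 each of Cdkn1a, Ccng1, Mdm2, Bax and Sesn1) hold at least 1 p53 half-site with no mismatch, against 2745 of all 32851 promoters (8.36%). Of those half-sites, 3 are printed with 20 bases on each side and the half-site in capitals, for the members without a 20-base match near their start. A match is a sequence description and does not show binding.

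Mdm2, GRCm38.p6 chr10:117710915-117710964, minus strand: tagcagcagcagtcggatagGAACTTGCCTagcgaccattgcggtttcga
Bax, GRCm38.p6 chr7:45467070-45467119, minus strand: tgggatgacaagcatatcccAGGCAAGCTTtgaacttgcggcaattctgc
Sesn1, GRCm38.p6 chr10:41887246-41887295, plus strand: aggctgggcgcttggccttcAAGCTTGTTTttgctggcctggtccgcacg

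On NCBIM37, Cdkn1a spans 29227924 to 29237667 of chromosome 17, Mdm2 117125944 to 117147814 of chromosome 10, Ccng1 40562054 to 40568813 of chromosome 11 and Trp53inp1 11083578 to 11101526 of chromosome 4. Bax spans 52717065 to 52722268 and Bbc3 16894965 to 16903554 of chromosome 7. Pmaip1 spans 66618258 to 66625204 of chromosome 18, Fas 34365149 to 34402260 of chromosome 19, Phlda3 137662696 to 137665713 of chromosome 1 and Sesn1 41530380 to 41628230 of chromosome 10. None of the 10 overlaps another annotated gene. Counts cover the exons of each gene, so introns, UTRs and coding parts are not separated.

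Reads on genes ranged from 10807631 to 15069899 per library. With Dox the targeted factor fell in each line: Pou5f1, which encodes Oct4, averaged 6368 normalized counts in noDox and 173 in Dox L-EPSCs of the Oct4-cKO line, Sox2 averaged 4833 and 50.1 in the Sox2-cKO line, and Nanog averaged 8983 and 3139 in the Nanog-cKO line. In the J1 groups, 10 fibroblast markers summed to 100708 to 102981 normalized counts in ESCs, 64178 to 64255 in D-EPSCs and 22257 to 22752 in L-EPSCs, and 8 macrophage markers summed to 2626 to 2661, 21494 to 21808 and 16506 to 16653. Against ESCs, 3 of the fibroblast markers were called higher and 4 lower in D-EPSCs and 7 lower in L-EPSCs, while 8 and 6 of the macrophage markers were called higher. In the same order of groups, 9 trophoblast markers summed to 1380 to 1387, 166 to 170 and 341 to 377. Against ESCs, 4 of these were lower in D-EPSCs, and 2 higher and 3 lower in L-EPSCs. The 7 primitive endoderm markers summed to 403 to 406, 1556 to 1568 and 953 to 986 (3 and 4 higher). Of these 7, Dab2 and Pdgfra averaged 163 and 212 in ESCs, 662 and 869 in D-EPSCs and 528 and 315 in L-EPSCs. Gata6 was at 17.07 and 24.9, then 24.51 and 15.66, then 45.24 and 35.63. Gata4, Sox17, Sox7 and Foxa2 averaged 5.95, 1.82, 0.449 and 0.449 in ESCs and 5.96, 0, 5.51 and 0 in D-EPSCs. In L-EPSCs these averaged 55.3, 17.2, 10.1 and 3.33. The median log2 fold change of the 7 against ESCs was 0.04 in D-EPSCs and 1.69 in L-EPSCs. The 8 pluripotency markers summed to 70490 to 70677, 39690 to 39908 and 49285 to 49323 (4 and 3 lower). In the tet-off libraries the 9 of these fibroblast markers that the table lists summed to between 391 and 1193 and the macrophage markers to between 183 and 761, with Col3a1, Lum and Tyrobp among those listed at 0 in both libraries of some groups. Fewer cells of a type and less RNA per cell cannot be told apart in these bulk samples. All J1 differences below were measured with these marker sums moving between the same groups, and their part in them was not tested.

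Per length, as reads per kilobase of exon per megaread (RPKM), Cdkn1a shared the first place with Bax among the 10 members in J1 ESCs (131 and 126 against 130 and 127 in the 2 libraries, group mean 128 for both) and 7th of 10 in the ESCs of each tet-off line (19.3 in Oct4-cKO, 22.2 in Sox2-cKO and 23.3 in Nanog-cKO). On the same scale Bax lay between 90.5 and 167 over the 12 groups and Ccng1 between 63.0 and 129. Fas, a death receptor, was the lowest member in every group, at 0.0756 to 4.11. Across the tet-off groups the ratio of the highest to the lowest group mean of normalized counts was 11.9 for Fas, at low counts. It was 10.6 for Pmaip1, 5.14 for Cdkn1a and 2.27 for Bbc3. For Pmaip1 these groups were Nanog-cKO noDox and Sox2-cKO Dox L-EPSCs, so its ratio spans different lines as well as Dox. The 2 tables were normalized separately, so levels were not tested between J1 and tet-off cells.

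A member was called changed with an adjusted p under 0.05 and an absolute log2 fold change above 0.6 in limma with Benjamini-Hochberg adjustment over all genes, where a log2 fold change is on the scale of log2(normalized count + 1). From J1 ESCs to D-EPSCs, 2 members rose (Pmaip1 and Fas) and 1 fell (Cdkn1a), and 20.7% of all genes were called. From J1 ESCs to L-EPSCs, 1 member rose (Pmaip1) and 1 fell (Cdkn1a), and 20.3% of all genes were called. The 2 comparisons share the ESC libraries. From D-EPSCs to L-EPSCs, 2 members fell (Fas and Phlda3), with 13.4% of all genes called. Without either L-EPSC library this last count was 1, and without either D-EPSC library it was 0. The median log2 fold change of the 10 members was 0.19, -0.14 and -0.23 in these comparisons.

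In the tet-off lines the members that changed from ESCs to noDox L-EPSCs were all higher. In the Oct4-cKO line 2 of 10 rose (Cdkn1a and Sesn1), where 28.4% of all genes were called and 13% were called higher. In the Sox2-cKO line 4 of 10 rose (Cdkn1a, Pmaip1, Phlda3 and Sesn1), where 19.6% were called and 7.99% were called higher. In the Nanog-cKO line 1 of 10 rose (Cdkn1a), where 26.9% were called and 12.2% were called higher. All genes called lower made up 15.4%, 11.6% and 14.7%. The member count was 4 without Oct4-cKO noDox replicate 1 in the Oct4-cKO line and 2 without Nanog-cKO noDox replicate 1 in the Nanog-cKO line. The median log2 fold change of the members was 0.56 in Oct4-cKO, 0.61 in Sox2-cKO and 0.04 in Nanog-cKO cells, while that of all genes tested was 0.

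Marker lists moved between the same groups. From Oct4-cKO ESCs to noDox L-EPSCs, 9 trophoblast markers summed to 1688 to 1792 and then 4388 to 4518 normalized counts (5 called higher), and 7 primitive endoderm markers to 189 to 216 and then 1111 to 1194 (5 called higher). In Sox2-cKO cells the trophoblast markers summed to 5669 to 5737 and then 1938 to 1996 (4 called lower), and the primitive endoderm markers to 446 to 491 and then 524 to 593 (2 called higher, 4 lower). In Nanog-cKO cells they summed to 480 to 517 and then 517 to 608 (4 called higher), and to 231 to 276 and then 352 to 369 (3 called higher, 1 lower). The 8 pluripotency markers summed to 73153 to 73474 and then 43753 to 44220 in Oct4-cKO cells (4 called lower), 56901 to 57444 and then 46300 to 46658 in Sox2-cKO cells (1 called lower), and 82397 to 83476 and then 46976 to 47065 in Nanog-cKO cells (6 called lower). Their part in the member differences was not tested.

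With Dox the members that changed were all lower. In Oct4-cKO L-EPSCs 3 of 10 fell (Bbc3, Pmaip1 and Trp53inp1), where 27.9% of all genes were called and 14.9% were called lower. In Sox2-cKO L-EPSCs 4 of 10 fell (Bbc3, Pmaip1, Fas and Phlda3), where 23.2% were called and 11% were called lower. In Nanog-cKO L-EPSCs 2 of 10 fell (Cdkn1a and Pmaip1), where 9.94% were called and 4.77% were called lower. The median log2 fold change of the members was -0.39, -0.50 and -0.14, and that of all genes tested was 0. The Dox comparison shares the noDox libraries with the comparison to ESCs. With Dox, 9 trophoblast markers summed to 29081 to 29391 in Oct4-cKO L-EPSCs against 4388 to 4518 in noDox, with 7 called higher. In Sox2-cKO L-EPSCs they summed to 12282 to 12315 against 1938 to 1996, with 8 called higher, and in Nanog-cKO L-EPSCs to 923 to 958 against 517 to 608, with 2 called higher. All genes called higher with Dox made up 13%, 12.2% and 5.17% in the Oct4-cKO, Sox2-cKO and Nanog-cKO lines. All 8 pluripotency markers fell in the Oct4-cKO line, where they summed to 43753 to 44220 in noDox and 4792 to 4993 in Dox, and all 8 fell in the Sox2-cKO line, where they summed to 46300 to 46658 and 9767 to 10048. In Nanog-cKO L-EPSCs 4 fell, and they summed to 46976 to 47065 and 29743 to 30339. The part of both marker lists in the member differences with Dox was not tested.

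**Figure D1:**
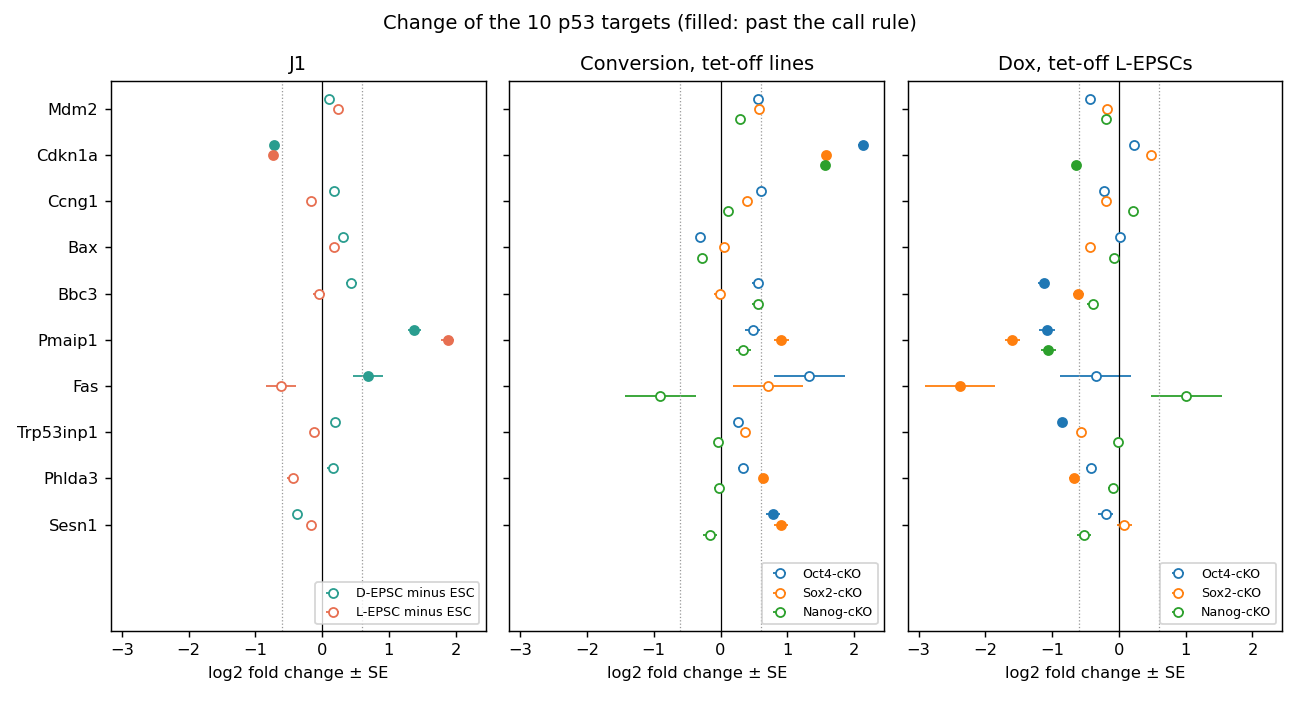
Log2 fold change with its SE (x axis) of each member (rows) in J1 EPSCs against ESCs, in noDox L-EPSCs against ESCs of the tet-off lines (conversion) and with Dox, with filled points for called differences and dotted lines at the fold limit. Filled points lie to the right of 0 in the conversion panel and to the left in the Dox panel.

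Cdkn1a encodes p21, the inhibitor of cyclin-dependent kinases through which p53 arrests the cell cycle. In J1 cells it was at 3940 and 3778 normalized counts in ESCs, 2394 and 2285 in D-EPSCs, and 2207 and 2404 in L-EPSCs. Both EPSC groups lay below the ESCs, and they overlapped each other. Cdkn1a fell by 0.72 on the log2 scale in D-EPSCs (SE 0.048, adjusted p = 1.41e-05, limma) and by 0.74 in L-EPSCs (SE 0.048, adjusted p = 1.17e-05, limma). Between D-EPSCs and L-EPSCs the difference was -0.02 (SE 0.048, approximate 95% interval -0.116 to 0.0723, adjusted p = 0.785, limma).

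In the tet-off lines the order was the opposite. Cdkn1a was at 493.5 and 538.6 normalized counts in Oct4-cKO ESCs, 2277 and 2251 in noDox L-EPSCs and 2773 and 2535 in Dox L-EPSCs. For the Sox2-cKO line it was at 575.5 and 612.1, then 1755 and 1809, then 2500 and 2466. For the Nanog-cKO line it was at 594.9 and 692.8, then 1908 and 1897, then 1245 and 1204. Every L-EPSC library lay above every ESC library of these lines, and the ESC groups of the Sox2-cKO and Nanog-cKO lines overlapped.

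From ESCs to noDox L-EPSCs, Cdkn1a rose 4.38-fold in the Oct4-cKO line (log2 fold change 2.13, SE 0.0641, adjusted p = 1.46e-13, limma). It rose 3.0-fold in the Sox2-cKO line (adjusted p = 1.3e-11, limma) and 2.96-fold in the Nanog-cKO line (adjusted p = 6.37e-12, limma). Among the 10030 genes with a mean of at least 100 in the tet-off table, Cdkn1a ranked 154th, 119th and 288th from the highest by this fold change. The rise in Oct4-cKO cells differed from that in Nanog-cKO cells by 0.57 (SE 0.0906, adjusted p = 0.000168, limma) and from that in Sox2-cKO cells by 0.55 (SE 0.0906, adjusted p = 0.000314, limma), both under the fold limit. Without Oct4-cKO ESC replicate 2 these were 0.63 and 0.61 and both were called, and without Nanog-cKO ESC replicate 1 the first was 0.68 and called. The Sox2-cKO and Nanog-cKO rises differed by 0.02 (approximate 95% interval -0.159 to 0.196). Fibroblast and macrophage markers summed to no more than 1193 and 761 in these libraries, while the other marker lists moved between the same groups as given above, and the part of these was not tested.

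With Dox, the differences of Cdkn1a did not have the same sign in every line. In Nanog-cKO L-EPSCs it fell by 0.64 on the log2 scale (SE 0.0641, adjusted p = 1.46e-06, limma), with the Dox libraries below both noDox libraries. In Sox2-cKO L-EPSCs the difference was 0.48 (adjusted p = 1.18e-05, limma) and in Oct4-cKO L-EPSCs 0.23 (adjusted p = 0.00794, limma), with Dox libraries above noDox libraries but under the fold limit. The test of the difference itself gave 1.11 between the Sox2-cKO and Nanog-cKO Dox effects (SE 0.0906, adjusted p = 7.76e-08, limma) and 0.86 between the Oct4-cKO and Nanog-cKO Dox effects (SE 0.0906, adjusted p = 1.08e-06, limma). With the values scaled to total reads, the fall in Nanog-cKO cells was -0.59 and was no longer called.

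**Figure D2:**
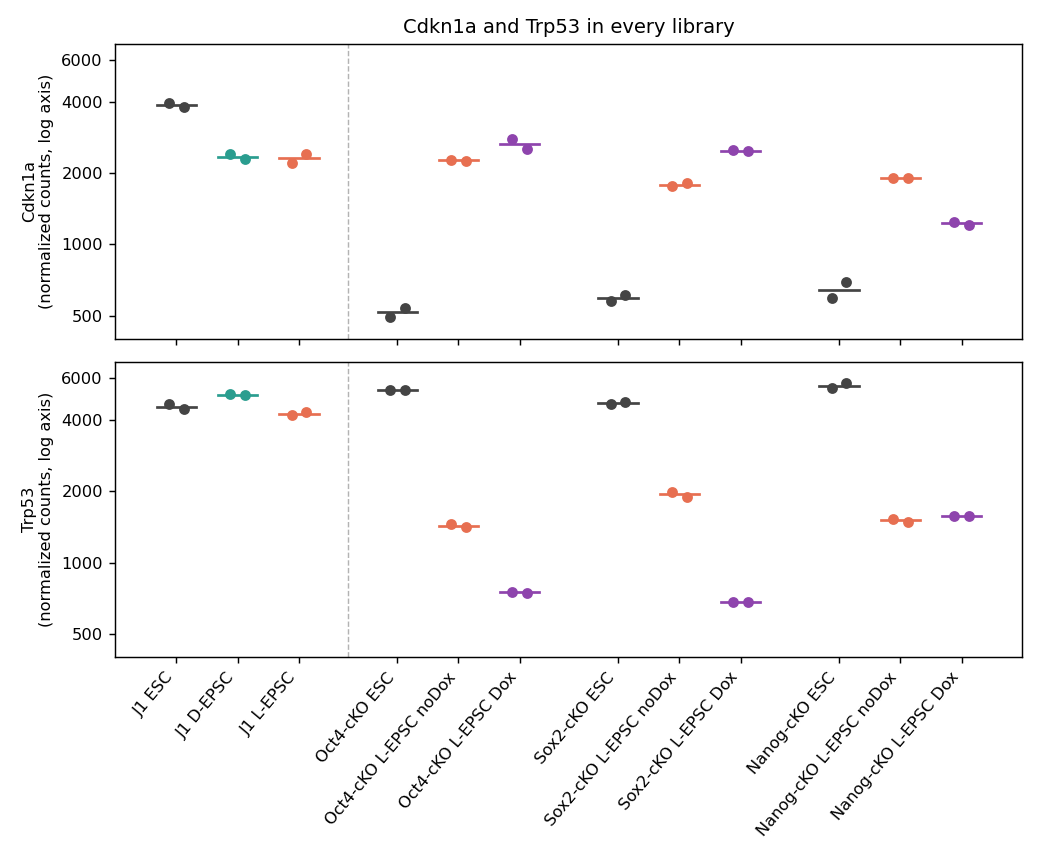
Normalized counts of Cdkn1a and Trp53 in each library (points, log axis) by group, with the group mean as a line. Cdkn1a lies between 493.5 and 692.8 in the tet-off ESC libraries and higher in all other libraries, and Trp53 is lower in every tet-off L-EPSC library than in the tet-off ESCs.

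Ccng1 encodes cyclin G1, a cyclin that recruits a phosphatase to Mdm2, and has the pair of p53 sites printed above. It was not called in any of the 9 comparisons. Its largest difference was in the Oct4-cKO line, from 3695 and 3718 normalized counts in ESCs to 5494 and 5727 in noDox L-EPSCs, without overlap (log2 fold change 0.60, SE 0.0367, adjusted p = 8.3e-10, limma), under the fold limit before rounding. It is called there at 0.63 without Oct4-cKO noDox replicate 1 and at 0.60 without Oct4-cKO ESC replicate 2. Within the Sox2-cKO line the difference was 0.40 and in the Nanog-cKO line 0.11. Among the J1 groups it was 0.18 in D-EPSCs and -0.16 in L-EPSCs against ESCs.

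Mdm2, the inhibitor of p53, was called in 0 of the 9 comparisons. It was at 2727 and 2827 normalized counts in Oct4-cKO ESCs, 4080 and 4123 in noDox L-EPSCs and 3053 and 2989 in Dox L-EPSCs. These groups did not overlap: Mdm2 was higher in noDox L-EPSCs by 0.56 (adjusted p = 7.57e-09, limma) and lower with Dox by a log2 difference of -0.44 (adjusted p = 1.54e-07, limma). Between ESCs and noDox L-EPSCs it differed by 0.58 in the Sox2-cKO line, where it is called at 0.61 without Sox2-cKO ESC replicate 2, and by 0.29 in the Nanog-cKO line. With Dox it differed by -0.18 in the Sox2-cKO and -0.19 in the Nanog-cKO line. In J1 cells it was at 2190 and 2160 in ESCs, 2359 and 2308 in D-EPSCs and 2592 and 2563 in L-EPSCs, where the groups do not overlap and the differences from ESCs were 0.10 and 0.24.

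Pmaip1 encodes Noxa, a BH3-only protein that neutralises Mcl1. Among the J1 groups it was at 144.7 and 172.5 normalized counts in ESCs, 416.6 and 406.3 in D-EPSCs and 575.7 and 591.9 in L-EPSCs. The groups did not overlap. Pmaip1 rose 2.59-fold in D-EPSCs (log2 fold change 1.38, SE 0.0966, adjusted p = 1.91e-05, limma) and 3.68-fold in L-EPSCs (log2 fold change 1.88, SE 0.0966, adjusted p = 3.48e-06, limma). Among the 10317 genes with a mean of at least 100 in the J1 table it ranked 331st and 140th from the highest. L-EPSCs and D-EPSCs differed by 0.50 (adjusted p = 0.00565, limma).

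In the tet-off lines Pmaip1 was at 414.1 and 394.5 normalized counts in Oct4-cKO ESCs, 517.3 and 616.2 in noDox and 264.9 and 269.7 in Dox L-EPSCs. For the Sox2-cKO line it was at 185.8 and 189, then 339.2 and 369.1, then 98.17 and 137.4. Within the Nanog-cKO line it was at 972.4 and 993.2, then 1245 and 1250, then 600.8 and 591.3. In each line the noDox L-EPSCs were highest and the Dox L-EPSCs lowest, without overlap, and the Nanog-cKO line had the highest level in each state. From ESCs to noDox L-EPSCs it rose by 0.91 on the log2 scale in the Sox2-cKO line (adjusted p = 7.8e-06, limma). The difference was 0.48 in the Oct4-cKO line (adjusted p = 0.00243, limma), which is called at 0.61 without Oct4-cKO noDox replicate 1, and 0.34 in the Nanog-cKO line (adjusted p = 0.0229, limma).

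With Dox, Pmaip1 fell in all 3 lines, by 1.08 on the log2 scale in Oct4-cKO (adjusted p = 7.33e-07, limma), by 1.60 in Sox2-cKO (adjusted p = 7.85e-09, limma) and by 1.06 in Nanog-cKO L-EPSCs (adjusted p = 3.12e-06, limma). It was the only member called with Dox in all 3 lines, where an effect of doxycycline itself cannot be told apart from loss of the factors. The share of all genes called with Dox in all 3 lines was not counted. The Dox effects of Sox2-cKO and Nanog-cKO differed by -0.53 (SE 0.162, adjusted p = 0.0196, limma) and those of Oct4-cKO and Sox2-cKO by 0.52 (SE 0.162, adjusted p = 0.026, limma), under the fold limit. Without Sox2-cKO Dox replicate 2, whose Pmaip1 value is the higher of the pair, these differences were -0.77 and 0.76 and both were called. Without Oct4-cKO noDox replicate 2 the Oct4-cKO and Sox2-cKO Dox effects differed by 0.65, which was called.

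Bbc3 encodes Puma, a BH3-only protein that binds all antiapoptotic Bcl2 proteins. In the Oct4-cKO line it was at 715.2 and 698.1 normalized counts in ESCs, 1029 and 1054 in noDox and 483.7 and 468.4 in Dox L-EPSCs. In the Sox2-cKO line it was at 825.8 and 760.4, then 787.5 and 785.1, then 470.2 and 567.5. For the Nanog-cKO line it was at 452.7 and 467.5, then 636.9 and 723.9, then 543.7 and 493.5. Dox libraries lay below noDox libraries in each line, and the Sox2-cKO ESC and noDox groups overlapped.

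With Dox, Bbc3 fell by 1.13 on the log2 scale in Oct4-cKO L-EPSCs (SE 0.0821, adjusted p = 6.61e-09, limma) and by 0.61 in Sox2-cKO L-EPSCs (adjusted p = 1.35e-05, limma). The call in Sox2-cKO cells is lost, at -0.47, without Sox2-cKO Dox replicate 1, and also with DESeq2, with total-read scaling and with only the groups compared. In Nanog-cKO L-EPSCs the difference was -0.39 (adjusted p = 0.00197, limma). The Oct4-cKO and Nanog-cKO Dox effects differed by -0.74 (SE 0.116, adjusted p = 8.69e-05, limma). Between ESCs and noDox L-EPSCs Bbc3 differed by 0.56 in the Oct4-cKO and in the Nanog-cKO line and by -0.01 in the Sox2-cKO line, and it is called in the Nanog-cKO line, at 0.65, without Nanog-cKO noDox replicate 1. In J1 cells it was at 260.6 and 249.9 in ESCs, 353.3 and 337.8 in D-EPSCs and 258 and 234.4 in L-EPSCs, with no call.

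Bax, the pore-forming effector of mitochondrial apoptosis, was not called in any of the 9 comparisons. Its largest difference was with Dox in the Sox2-cKO line, from 2107 and 1870 normalized counts to 1455 and 1476 (log2 fold change -0.44, adjusted p = 1.51e-05, limma). In the Oct4-cKO line it was at 2029 and 2063 in noDox and 1983 and 2152 in Dox L-EPSCs, which overlapped (0.01, adjusted p = 0.956, limma). Among the J1 groups it differed by 0.31 in D-EPSCs and 0.18 in L-EPSCs against ESCs.

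Fas, the death receptor bound by Fas ligand, was at low counts. In J1 cells it was at 67.4 and 51.64 normalized counts in ESCs, 99.05 and 92.02 in D-EPSCs and 42.15 and 34.48 in L-EPSCs. The groups did not overlap. Fas rose by 0.69 on the log2 scale in D-EPSCs (SE 0.224, adjusted p = 0.0449, limma), and the call is lost on leaving out any of the 4 libraries compared, with log2 fold changes of 0.87 without ESC replicate 1, 0.50 without ESC replicate 2, 0.63 without D-EPSC replicate 1 and 0.74 without D-EPSC replicate 2. From D-EPSCs to L-EPSCs it fell by 1.30 (SE 0.224, adjusted p = 0.00346, limma), a call lost without D-EPSC replicate 1 (-1.25), D-EPSC replicate 2 (-1.35) or L-EPSC replicate 2 (-1.16).

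In the tet-off table every Fas value was at or below 20.66 normalized counts. For the Sox2-cKO line Fas had 26 reads over the noDox and 4 over the Dox L-EPSC libraries, a depth-scaled ratio of 8.04 with an exact 95% counting interval of 2.79 to 31.7, and it was called lower (log2 fold change -2.38, SE 0.528, adjusted p = 0.00155, limma). The 2 noDox libraries held 7 and 19 of the 26 reads. In the Nanog-cKO line it was at 4.261 and 4.078 in noDox and 8.784 and 10.12 in Dox L-EPSCs (log2 fold change 1.01, adjusted p = 0.201, limma). The Sox2-cKO and Nanog-cKO Dox effects differed by -3.39 (SE 0.746, adjusted p = 0.00215, limma). Between ESCs and noDox L-EPSCs it was at 10.46 and 4.834, then 18.63 and 20.66, in the Oct4-cKO line (1.33, adjusted p = 0.0513, limma), which is called at 1.82 without Oct4-cKO ESC replicate 1.

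**Figure D3:**
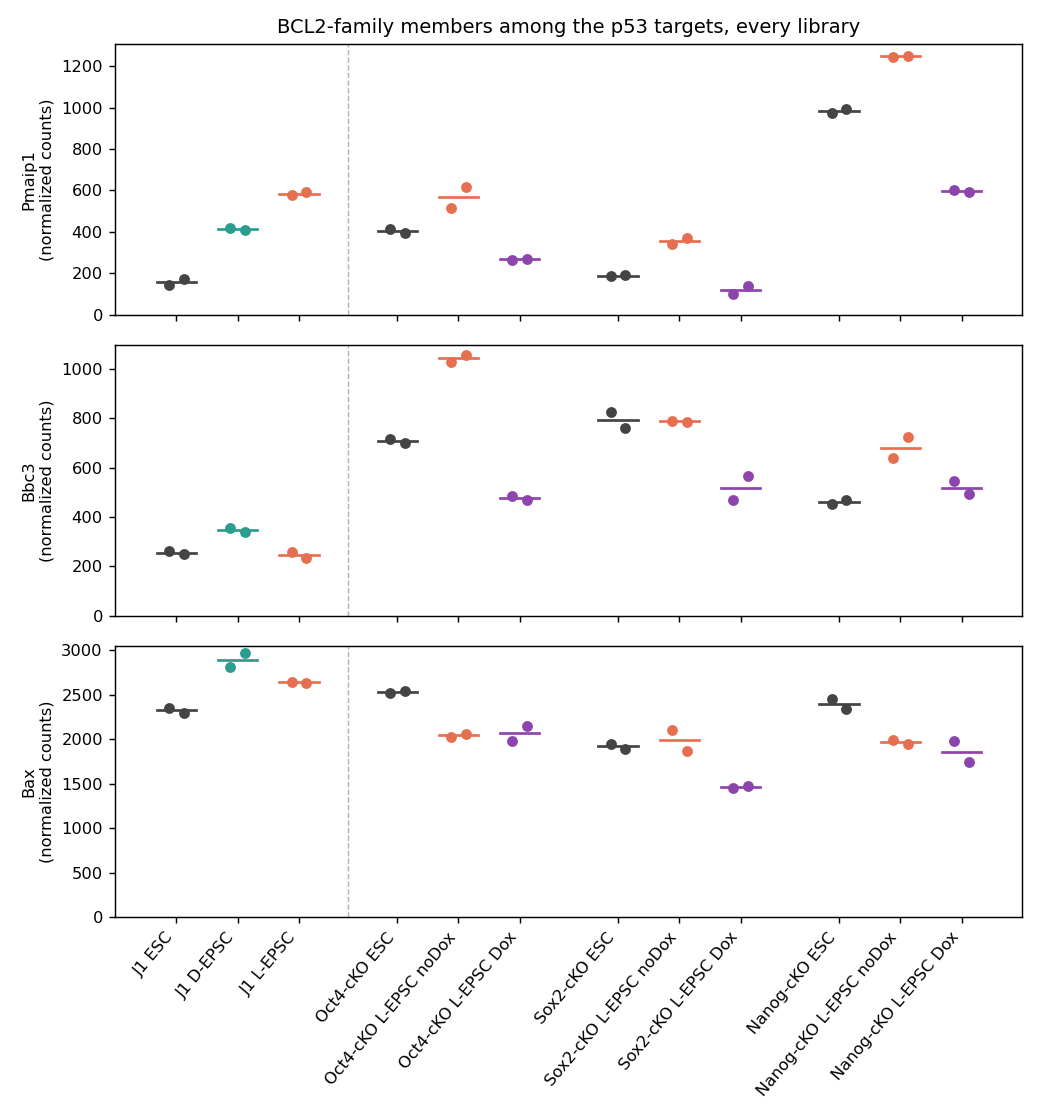
Normalized counts (y axes, linear) of Pmaip1, Bbc3 and Bax in each library (points), with the group mean as a line. Pmaip1 lies lowest in ESCs among the J1 groups and lowest in Dox L-EPSCs in each tet-off line, and Bax lies between 1455 and 2970 in all libraries.

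Trp53inp1 encodes a nuclear body protein that promotes p53 phosphorylation and autophagy. With Dox it fell by 0.85 on the log2 scale in Oct4-cKO L-EPSCs (SE 0.0454, adjusted p = 1.41e-10, limma), from 5561 and 5492 normalized counts to 2987 and 3164. In Sox2-cKO L-EPSCs it went from 5521 and 6125 to 4025 and 3830 without overlap, a difference of -0.57 (adjusted p = 2.93e-08, limma), which is called at -0.64 without Sox2-cKO noDox replicate 1 and at -0.60 without Sox2-cKO Dox replicate 1. In Nanog-cKO L-EPSCs it was at 3905 and 3977 in noDox and 3873 and 3914 in Dox, which overlapped (-0.02, adjusted p = 0.92, limma). The Oct4-cKO and Nanog-cKO Dox effects differed by -0.83 (SE 0.0642, adjusted p = 3.05e-08, limma). It was not called in J1 cells, nor between ESCs and noDox L-EPSCs.

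Phlda3 encodes a pleckstrin homology protein that inhibits Akt. Within the Sox2-cKO line it was at 500.7 and 501.1 normalized counts in ESCs, 822.1 and 738.3 in noDox and 486.7 and 487.3 in Dox L-EPSCs, so both noDox libraries lay above the other groups. It rose by 0.64 from ESCs to noDox L-EPSCs (SE 0.0691, adjusted p = 1.5e-06, limma) and fell by 0.68 with Dox (adjusted p = 5.43e-07, limma), and both calls are lost without Sox2-cKO noDox replicate 1, at 0.56 and -0.60 (before rounding, inside the limit). For the Nanog-cKO line it lay between 463.1 and 539.2 in all 6 libraries. In the Oct4-cKO line it was at 817.7 and 790.9, then 1019 and 1008, then 806.1 and 709.3, with no call. The differences from ESCs in Sox2-cKO and Nanog-cKO cells differed by 0.66 (SE 0.0977, adjusted p = 7.76e-05, limma), which is 0.59 and not called without Sox2-cKO noDox replicate 1.

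In J1 cells Phlda3 was at 1055 and 1051 normalized counts in ESCs, 1209 and 1140 in D-EPSCs and 707.3 and 847 in L-EPSCs. L-EPSCs lay below the other groups. The difference between L-EPSCs and D-EPSCs was called at the fold limit (log2 fold change -0.60, SE 0.0815, adjusted p = 0.00108, limma) and is lost without L-EPSC replicate 1 (-0.47), D-EPSC replicate 1 (-0.56) or D-EPSC replicate 2 (-0.64), and with TMM scaling, edgeR, DESeq2 or only the groups compared.

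Sesn1 encodes sestrin 1, which restrains mTORC1. In the Oct4-cKO line it was at 290.7 and 280.4 normalized counts in ESCs, 496 and 494.1 in noDox and 424.9 and 435.1 in Dox L-EPSCs. For the Sox2-cKO line it was at 266.5 and 203.8, then 469.9 and 411, then 439.7 and 492.2. Within the Nanog-cKO line it was at 472.6 and 476.4, then 400.5 and 450.6, then 283.7 and 310.3. Nanog-cKO ESCs lay within the range of the noDox L-EPSCs of the other lines, and the ESCs of those lines lay below it.

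From ESCs to noDox L-EPSCs, Sesn1 rose by 0.79 on the log2 scale in Oct4-cKO (SE 0.108, adjusted p = 1.19e-05, limma) and by 0.91 in Sox2-cKO cells (adjusted p = 3.96e-06, limma). In Nanog-cKO cells the difference was -0.16 (adjusted p = 0.277, limma). The Oct4-cKO and Nanog-cKO differences differed by 0.95 (SE 0.153, adjusted p = 0.000174, limma), and the Sox2-cKO and Nanog-cKO differences by 1.07 (SE 0.153, adjusted p = 5.71e-05, limma). With Dox it differed by -0.52 in Nanog-cKO L-EPSCs (adjusted p = 0.00187, limma), which is called at -0.60 without Nanog-cKO noDox replicate 1. Among the J1 groups it was at 574.2 and 570.9 in ESCs, 427.9 and 460.1 in D-EPSCs and 495.5 and 531 in L-EPSCs, with no call.

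Differences of effects between lines were tested for all members. For the Dox effect, 3 members (Cdkn1a, Bbc3 and Trp53inp1) were called between Oct4-cKO and Nanog-cKO, where 22.6% of all genes were called, and 2 (Cdkn1a and Fas) between Sox2-cKO and Nanog-cKO, where 18.3% were called. Between Oct4-cKO and Sox2-cKO, limma called 0 members, and 12.9% of all genes. For the step from ESCs to noDox L-EPSCs, 2 members (Fas and Sesn1) were called between Oct4-cKO and Nanog-cKO, with 14.7% of all genes, and 2 (Phlda3 and Sesn1) between Sox2-cKO and Nanog-cKO, with 14.8%. Between Oct4-cKO and Sox2-cKO, limma called 0 members, and 10% of all genes. At an unadjusted p under 0.05, 8 members passed in the Dox comparison of these 2 lines and 6 in the other, while edgeR called 1 and 0 members and DESeq2 1 and 0. The share of all genes under this unadjusted limit was not counted, so the 8 and 6 cannot be set against it. The Dox count for these 2 lines was 2 without Sox2-cKO Dox replicate 1 and 1 without Sox2-cKO Dox replicate 2, Sox2-cKO noDox replicate 1 or Oct4-cKO noDox replicate 2, and the other count was 1 without Sox2-cKO ESC replicate 2 or Oct4-cKO ESC replicate 2. The Dox count between Sox2-cKO and Nanog-cKO was 4 without Sox2-cKO noDox replicate 1 or Nanog-cKO Dox replicate 2. The Fas difference between Oct4-cKO and Nanog-cKO, 2.24 (SE 0.746, adjusted p = 0.0365, limma), rests on values at or below 20.66 normalized counts and is lost on leaving out any of 7 of the 8 libraries compared, Oct4-cKO ESC replicate 1 being the exception, with values of 1.75 to 2.31.

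Trp53 itself was measured beside its targets. In J1 cells it was at 4687 and 4434 normalized counts in ESCs, 5157 and 5079 in D-EPSCs and 4190 and 4303 in L-EPSCs, with no call. In the Oct4-cKO line it was at 5368 and 5337 in ESCs, 1461 and 1409 in noDox and 750.8 and 747 in Dox L-EPSCs. In the Sox2-cKO line it was at 4665 and 4776, then 1987 and 1900, then 685.5 and 683.6. Nanog-cKO ESCs had 5457 and 5709. Trp53 fell from ESCs to noDox L-EPSCs in the Oct4-cKO, Sox2-cKO and Nanog-cKO lines, with log2 fold changes of -1.90, -1.28 and -1.89 (adjusted p = 7.54e-16, 1.88e-13 and 5.4e-16, limma). In these same comparisons Cdkn1a rose.

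With Dox, Trp53 fell in Oct4-cKO and Sox2-cKO L-EPSCs, with log2 fold changes of -0.94 and -1.5 (adjusted p = 1.83e-12 and 9.48e-15, limma), while in Nanog-cKO L-EPSCs it was at 1530 and 1492 in noDox and 1573 and 1568 in Dox (0.06, adjusted p = 0.308, limma). Trp53 has a processed pseudogene in the mouse genome, and the share of reads that could come from either copy was not measured.

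Trp53 and 17 genes that regulate p53 formed a list of 18. Between ESCs and noDox L-EPSCs, 8, 5 and 3 of them fell and 1 rose in each of the Oct4-cKO, Sox2-cKO and Nanog-cKO lines, with medians of -0.14, -0.04 and -0.13. Of all genes, 15.4%, 11.6% and 14.7% were called lower in these lines and 13%, 7.99% and 12.2% higher. Sirt1, which deacetylates p53, fell by 1.82, 0.93 and 1.94 on the log2 scale. Cdkn2a, whose Arf product blocks Mdm2, rose in the Oct4-cKO line from 76.33 and 73.48 normalized counts to 228.9 and 175.2 (log2 fold change 1.41) and rose by 0.65 in the Sox2-cKO and by 1.57 in the Nanog-cKO line.

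With Dox, 7 of the 18 regulators fell and 1 rose in each of the Oct4-cKO and Sox2-cKO lines, with medians of -0.49 and -0.38. Among all genes, 14.9% and 11% were called lower and 13% and 12.2% higher. For the Nanog-cKO line, where 9.94% of all genes were called, the single call was Sirt1, which rose by 0.68. Mdm4, the partner of Mdm2 that masks the p53 activation domain, fell in the Oct4-cKO line from 2761 and 2838 normalized counts to 801.5 and 804.8. Trp73, a p53 family member, had 136 reads in noDox and 2 in Dox L-EPSCs of the Oct4-cKO line, a depth-scaled ratio of 54.0 (exact 95% counting interval 14.7 to 451). For the Sox2-cKO line it had 201 and 3 reads, a ratio of 82.9 (interval 28.0 to 405).

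A list of 24 further p53 targets moved in both directions. From ESCs to noDox L-EPSCs, 4 rose and 4 fell in the Oct4-cKO line, 3 rose and 2 fell in the Sox2-cKO line, and 6 rose and 4 fell in the Nanog-cKO line, with medians of 0.05, 0.09 and 0.04. All genes called higher made up 13%, 7.99% and 12.2%, and those called lower 15.4%, 11.6% and 14.7%. Gdf15, a secreted stress cytokine, was at 57.51 and 51.25 normalized counts in Oct4-cKO ESCs and 119.8 and 117.7 in noDox L-EPSCs, a log2 rise of 1.11, and it rose by 1.27 in the Sox2-cKO and 1.28 in the Nanog-cKO line. Rrm2b, the p53-inducible subunit of ribonucleotide reductase, rose by 1.72 in the Oct4-cKO line, from 117.1 and 89.92 to 329.2 and 351.2, by 0.87 in the Sox2-cKO line and by 1.76 in the Nanog-cKO line. Pml, which organises nuclear bodies, fell by 1.49, 1.32 and 1.33 in the 3 lines.

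With Dox, 9 of the 24 fell and 1 rose in Oct4-cKO L-EPSCs (median -0.21), 7 fell and 1 rose in Sox2-cKO L-EPSCs (median -0.21), and 1 fell and 1 rose in Nanog-cKO L-EPSCs (median -0.01). All genes called lower made up 14.9%, 11% and 4.77%, and those called higher 13%, 12.2% and 5.17%. Ak1, an adenylate kinase, was at 740.1 and 672.8 normalized counts in noDox and 73.7 and 61.05 in Dox L-EPSCs of the Oct4-cKO line, and it fell by 3.38, 2.31 and 1.15 in the 3 lines. Pidd1, the scaffold of the caspase 2 complex, fell by 1.89 in Oct4-cKO and by 1.21 in Sox2-cKO L-EPSCs.

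In J1 cells, 5 of the 24 rose and 2 fell in D-EPSCs and 1 rose and 4 fell in L-EPSCs against ESCs, with medians of 0.13 and -0.10. Gdf15 was at 193.2 and 213 normalized counts in ESCs, 80.67 and 63.63 in D-EPSCs and 69.91 and 64.36 in L-EPSCs, and fell by 1.49 and 1.58. Gadd45a, a DNA damage response gene, rose by 1.48 and 1.27. From D-EPSCs to L-EPSCs 5 of the 24 fell, with 8.58% of all genes called lower. Gdf15 and Cdkn1a were thus both lower in J1 EPSCs and both higher in noDox L-EPSCs of all 3 tet-off lines, relative to the ESCs of their own table.

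**Figure D4:**
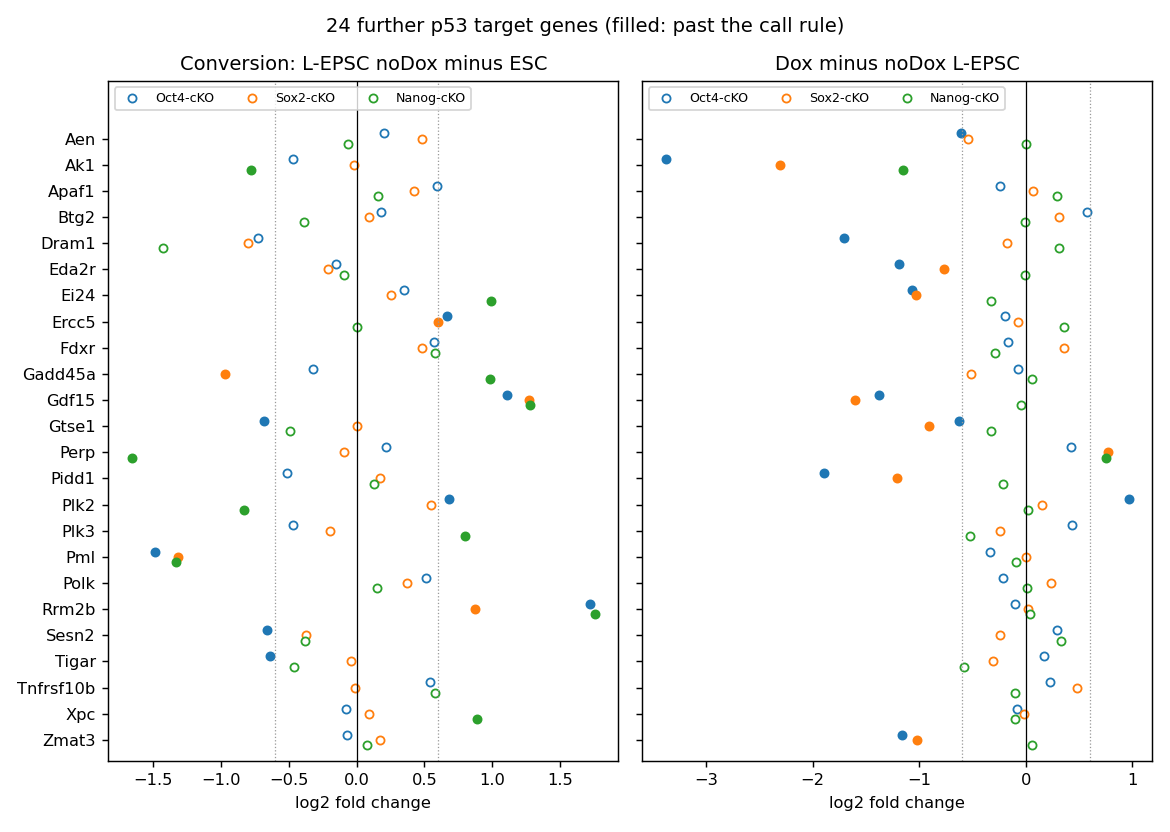
Log2 fold change (x axis) of 24 further p53 targets (rows) in noDox L-EPSCs against ESCs (conversion) and with Dox in the tet-off lines (colours), with filled points for called genes. Filled points lie on both sides of 0 in the conversion panel, and with Dox 9 and 7 lie to the left for the Oct4-cKO and Sox2-cKO lines. Of all genes, 14.9% and 11% were called lower with Dox in these lines.

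Of the Bcl2 and caspase genes, 19 of 20 were tested in the tet-off lines. Between ESCs and noDox L-EPSCs, 4, 4 and 5 rose and 2, 2 and 3 fell in the Oct4-cKO, Sox2-cKO and Nanog-cKO lines. The shares of all genes were 13%, 7.99% and 12.2% called higher and 15.4%, 11.6% and 14.7% called lower. With Dox, 4, 4 and 0 rose and 3, 4 and 3 fell in the 3 lines. All genes called higher made up 13%, 12.2% and 5.17% there, and those called lower 14.9%, 11% and 4.77%. Mcl1, the antiapoptotic partner of Noxa, fell with Dox by 1.33 in Oct4-cKO L-EPSCs, where Pmaip1 also fell. In the same comparison Bok went from 75.43 and 58.39 normalized counts to 18.43 and 13.32. Bik went the other way, from 74.54 and 80.85 to 168.1 and 178.7, and 12 of the 19 lay above 0. In J1 cells 2 rose and 2 fell in each comparison with ESCs, where 20.7% (D-EPSCs) and 20.3% (L-EPSCs) of all genes were called. Bmf and Bcl2l11, which encode BH3-only proteins, rose by 3.49 and 1.27 in D-EPSCs and by 1.89 and 0.90 in L-EPSCs, the groups in which Pmaip1 was also higher. Other BH3-only genes of the list did not share this rise. Bid and Bad averaged 1054 and 205 normalized counts in ESCs, 725 and 158 in D-EPSCs and 896 and 182 in L-EPSCs. Bik and Hrk, at low counts, averaged 4.56 and 8.16, then 5.51 and 9.08, then 10.0 and 6.47. Bak1 and Bok averaged 2024 and 210 normalized counts in ESCs, 1213 and 125 in D-EPSCs and 1484 and 227 in L-EPSCs. Of the 19 tested, 8 lay above 0 and 11 below in D-EPSCs, and 7 and 12 in L-EPSCs.

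Of 12 cell cycle genes that the p53 and p21 axis represses through the DREAM complex, 0 were called in the J1 comparisons by limma, edgeR or DESeq2, while 11 in D-EPSCs against ESCs, 8 in L-EPSCs against ESCs and 10 in L-EPSCs against D-EPSCs passed an unadjusted p under 0.05 in limma. In the same order, 2, 6 and 10 of the 12 lay above 0 and 10, 6 and 2 below. The share of all genes under the unadjusted limit was not counted. From ESCs to noDox L-EPSCs, 2, 2 and 3 of the 12 fell in the Oct4-cKO, Sox2-cKO and Nanog-cKO lines, against 15.4%, 11.6% and 14.7% of all genes called lower. Mybl2, a subunit of the activating MuvB complex, fell by 1.12, 0.85 and 1.16, and Cdc20, the mitotic activator of the anaphase-promoting complex, by 0.86, 0.78 and 1.40. With Dox, 1 fell in the Oct4-cKO and 4 in the Sox2-cKO line, against 14.9% and 11% of all genes called lower, among them Bub1, a spindle checkpoint kinase, by 0.87 in Oct4-cKO and 0.85 in Sox2-cKO L-EPSCs. In the Nanog-cKO line limma, edgeR and DESeq2 each called 0 with Dox, while 11 passed an unadjusted p under 0.05 in limma. There 8 of the 12 lay above 0 and 4 below, and the share of all genes was again not counted.

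The genes whose pattern was most like each member were found by Pearson's r of log2 values over the 18 tet-off libraries, among the 10030 genes with a mean of at least 100. The libraries come from 9 groups, so r describes the pattern of 9 states in 3 lines. For Cdkn1a these were Scarb1 (r = 0.986), a lipoprotein receptor, Hpcal1 (0.978), Bnip3 (0.977), a mitophagy receptor, 5031439G07Rik (0.976) and Map2k6 (0.976), a kinase of p38. For Pmaip1 the most alike was Ruvbl2 (0.973), for Ccng1 Rhoa (0.976), for Mdm2 Pdp2 (0.948), for Bax Eif5a (0.933), for Bbc3 Ptpn13 (0.925), for Trp53inp1 Igsf3 (0.914), for Phlda3 Agpat2 (0.909) and for Sesn1 Clpb (0.869). None of these was another member. Fas was under the minimum mean.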

How the data were processed

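Poly(A) RNA of 24 mouse libraries was measured. According to the methods and labels, the authors trimmed reads with Trim Galore 0.6.4, aligned them with STAR 2.7.9a to NCBIM37 (mm9), counted them per gene with HTSeq 0.11.2 and divided the counts by DESeq2 size factors, so the deposited values are a signal of normalized counts, with J1 and tet-off libraries normalized separately. The strand setting is not given in the sources used here. Dividing each library's values by the worth of 1 read gave whole numbers (tolerance 0.1) for 100% of genes, so whole reads were recovered.

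Columns were matched to samples by their labels. A minimum of 2 reads over all libraries of a table left 21533 of 23095 J1 and 24007 of 25476 tet-off genes for the test. This was the two-sided limma test (version 3.58.1, R 4.3.3; trend on mean expression) of log2(normalized count + 1). Each table was fitted whole, and p-values were adjusted by Benjamini-Hochberg over the genes of each comparison. Differences between lines were interaction terms of that fit. Approximate 95% intervals are the estimate plus or minus the normal multiple of its SE. The design named a test for either raw counts or normalized values, and the latter applied. Counting intervals are exact, cover counting error only and treat reads as independent molecules. The fits were tested on simulated data. Alternatives were edgeR 4.0.16 and DESeq2 1.42.0 on the recovered reads, TMM scaling, a mean of at least 10, a pseudocount of 0.1, a log2 threshold of 1, only the groups compared, the replicate block and leaving out each library, and scaling to total reads, which was added after seeing the data.

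The members were matched by symbol, and all are named. The lists and members were chosen with earlier results of these data known. From each other list, up to 3 called genes with the largest absolute log2 fold change per comparison could be named, with their values elsewhere. For the J1 groups all 7 primitive endoderm markers, Bak1, Bid, Bad, Bik and Hrk are named too. Mdm4, Mcl1 and genes named for a second line were among these in at least 1 comparison. Gene positions and exon lengths came from GENCODE vM1 on NCBIM37 and promoters from RefSeq. SciPy 1.17.1, pandas 2.3.3 and NumPy 2.4.6 were used in Python 3.11.15.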

Additional observations from a re-analysis of the deposited data

Results flagged for a closer look

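Each result here is a difference of effects between groups. The Dox effect on Cdkn1a differed by 1.11 on the log2 scale between Sox2-cKO and Nanog-cKO L-EPSCs and by 0.86 between Oct4-cKO and Nanog-cKO L-EPSCs. Between Oct4-cKO and Nanog-cKO L-EPSCs the Dox effect differed by -0.74 for Bbc3 and by -0.83 for Trp53inp1. For Fas, at few reads, the Dox effect differed by -3.39 between Sox2-cKO and Nanog-cKO L-EPSCs.

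The difference between ESCs and noDox L-EPSCs was larger by 0.95 in Oct4-cKO than in Nanog-cKO cells and by 1.07 in Sox2-cKO than in Nanog-cKO cells for Sesn1. It was larger by 0.66 in Sox2-cKO than in Nanog-cKO cells for Phlda3 and by 2.24 in Oct4-cKO than in Nanog-cKO cells for Fas.

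From ESCs to L-EPSCs, 2 members moved one way in J1 cells and the other way in every tet-off line, without overlap of the libraries. The share of all genes with this pattern was not counted, so the count of members cannot be set against it. For Cdkn1a the log2 difference in J1 cells was -0.74 and for Ccng1 -0.16. The difference between J1 and tet-off cells was not tested, and the tables were fitted separately. Fibroblast markers summed to 100708 to 102981 in J1 ESCs, 22257 to 22752 in J1 L-EPSCs and at most 1193 in tet-off libraries. The labels describe the ESC medium for J1 cells. The part of these in the difference was not tested.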

How the results depend on the processing

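No member's called difference reversed under any alternative. Counts of members called moved as follows. For J1 L-EPSC against D-EPSC (2), 1 was called with TMM scaling, edgeR, DESeq2, a threshold of 1 and only the groups compared. From Oct4-cKO ESCs to noDox L-EPSCs (2), 4 were called with TMM scaling and with edgeR, and from Nanog-cKO ESCs (1), 2 with edgeR. For the Dox effect of Oct4-cKO against Sox2-cKO (0), 1 was called with edgeR and 1 with DESeq2, and for Sox2-cKO against Nanog-cKO (2), 4 with edgeR and 1 at a mean of at least 10. For the ESC to noDox difference of Oct4-cKO against Nanog-cKO (2), 1 was called with DESeq2, at a mean of at least 10 and with a pseudocount of 0.1. With only the groups compared, 2 members were called for Dox in Sox2-cKO, and 998 genes for Dox in Nanog-cKO L-EPSCs, where 2386 were called in the fit of all groups. With scaling to total reads 1 member was called for Dox in Nanog-cKO L-EPSCs.

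At a log2 threshold of 1, the genes called were 2899 and 1836 for J1 L-EPSC against ESC and D-EPSC. From ESCs to noDox L-EPSCs they were 4466, 2990 and 4196 in the Oct4-cKO, Sox2-cKO and Nanog-cKO lines, and for Dox 3628 and 1293 in the Sox2-cKO and Nanog-cKO lines. For differences of Dox effects they were 1635 (Oct4 against Sox2), 3545 (Oct4 against Nanog) and 2714 (Sox2 against Nanog), and for differences of the ESC to noDox step 1286, 2059 and 2199. Of the members, 1 was then called in each J1 comparison, 1 in Oct4-cKO and 1 in Sox2-cKO from ESCs to noDox L-EPSCs, 2 for Dox in Sox2-cKO and 1 in Nanog-cKO L-EPSCs, 0 for the difference of Dox effects of Oct4-cKO against Nanog-cKO, and 1 for each difference of the ESC to noDox step against Nanog-cKO.

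Leaving out each library gave 1913 to 2104 genes (main 2881) for J1 L-EPSC against D-EPSC. The members called then ranged from 0 to 1 there, 2 to 4 and 1 to 2 from ESCs to noDox L-EPSCs in Oct4-cKO and Nanog-cKO cells, 0 to 2 and 2 to 4 for the Dox effects of Oct4-cKO against Sox2-cKO and Sox2-cKO against Nanog-cKO, and 1 to 2 and 0 to 1 for the ESC to noDox step of Oct4-cKO against Nanog-cKO and Sox2-cKO. The cause was not tested.

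Replicate numbers did not pair the samples: the deviations of same-numbered libraries correlated between -0.00757 and 0.0264 in 3 pairs of J1 groups and between -0.0625 and 0.0626 in 36 pairs of tet-off groups. With the replicate number as a block, no member's call changed, and 4 members were called with Dox in Sox2-cKO L-EPSCs as without the block. Of the 5 genes most like Cdkn1a, 0 remained in the top 5 over the ESC, 0 over the noDox and 0 over the Dox libraries alone, with r of 0.308 to 0.922, 0.551 to 0.979 and 0.904 to 0.98. Depth limits Fas most, with at most 20.66 normalized counts per tet-off library.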
